A study of Mus musculus with 8 samples.

Results

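The genes described here are the kinesins, the centromere proteins and the core genes of the mitotic checkpoint and spindle, measured by RNA sequencing in mouse embryonic fibroblasts, which are connective tissue cells taken into culture from embryos. They were chosen by symbol: every Kif gene with a number, every Cenp gene with a single letter, and 24 named genes such as Bub1, Ndc80, Aurkb, Ccnb1 and Top2a. This gave 75 of the 12211 genes in the table, 31 of them kinesins, and 74 of the 75 had enough counts to be tested. The exception was Kif5a, a neuronal kinesin heavy chain, with 4 to 11 counts per library. The study held 8 libraries, 4 labelled control (genotype WT) and 4 labelled PUS10KO, in which the pseudouridine synthase gene Pus10 was targeted. All cells were grown without any stated treatment, and the strain, the embryos' age, how the gene was targeted, and whether the cells were clones or pools are points that the sources used here do not give. The libraries carry the numbers 1 to 4 in each genotype, and no label says what a number stands for or whether the libraries are separate cultures, so that p-values here reflect the spread among these libraries, which may be technical.

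Kinesins are motor proteins that move along microtubules. Some work only while cells divide: they slide spindle microtubules apart, shorten them at chromosomes, or build the midzone where the daughter cells separate. Others carry vesicles, organelles or cilium components in cells at any stage. The kinetochore is built in layers on centromeric chromatin that holds the histone variant CENP-A, its outer layer grips microtubules, and the spindle checkpoint holds back the activator Cdc20 until all chromosomes are attached. In cycling cells most of the mitotic genes are transcribed together late in the cycle, so their RNA in a culture is known to follow how many cells are dividing. The members were sorted by role into 10 groups. The 52 tested members of 7 groups (mitotic kinesins, inner and outer kinetochore, checkpoint, Aurora and Polo kinases, cyclins, chromosome untangling and cytokinesis) are called mitotic members below. The other 22 are 11 cargo transport kinesins, 8 other kinesins and 3 other Cenp genes.

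Some facts of the whole series bear on every value below. Total counts ran from 17561114 to 24563499 per library. Levels are given as CPM, counts relative to a library total of 1e+06 after TMM scaling, a correction for differences in composition between libraries. Pus10 had 40.1 to 51.8 CPM in control and 11.5 to 15.2 CPM in PUS10KO (log2 fold change -1.74, adjusted p = 0.000189). The Y-linked gene Eif2s3y had 0 counts in control and 5989 over the PUS10KO libraries, so that genotype and the sex chromosomes of the cells cannot be told apart. The fibroblast markers Col1a1 (889 to 2349 CPM in control, 1019 to 1526 in PUS10KO) and Vim (5866 to 7280 and 4410 to 4870) were abundant in all libraries, and 4 of 12 fibroblast markers fell, with Thy1 at 1726 counts in control and 2 in PUS10KO. None of 8 epithelial markers was among the rows of the table, and the summed level of the leukocyte markers present (3 of 8) ran from 4.997 to 9.05 CPM in control and 2.51 to 6.67 CPM in PUS10KO. The part of cell composition in the results below was not tested. The libraries numbered 1 stand apart from the rest in both genotypes for the mitotic genes, and results that rest on them are given with and without them.

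Without library number in the model, 3 of the 74 tested members rose in PUS10KO, Kif1a, Cenpv and Kif7, and 1 fell, Kif3c, which is 5.41% of them. Among all 11909 genes tested 13% passed the same test, edgeR's quasi-likelihood test with p-values adjusted over all genes by Benjamini-Hochberg and a threshold of 0.05 (5.9% rose and 7.11% fell). With number as a block, described further below, 17 members rose and 5 fell, 7 and 2 of them mitotic members, beside 39% of all genes. None of the 4 called without the block is a core mitotic gene: 2 are transport motors, Kif7 acts in cilia, and Cenpv belongs to no kinetochore layer. In 6 members the genotypes did not overlap, 5 of them higher in PUS10KO (Kif1a, Cenpv, Kif7, Kif21a and Kif26b) and Kif3c lower, beside 9.7% of all genes tested that were higher and 10.6% that were lower without overlap. Of the 52 mitotic members 0 passed without the block, 2 had an unadjusted p under 0.05 (Cenpk and Cenpo), DESeq2 called 1 and limma voom 0. Over all genes 3115 had such a p, DESeq2 called 1083 that rose and 1232 that fell, and limma voom 699 and 814. The median log2 fold change was 0.05 for the 11 mitotic kinesins and -0.09 for the 11 cargo transport kinesins, beside 0.01 for all genes tested. Without both libraries numbered 1 the same test called Kif1a (4.46), Cenpv (1.42) and Cenpk (0.81), which rose, and Cenpo (-0.60), which fell, beside 9.55% of all genes. With 1 library left out at a time the median of the mitotic kinesins ranged from -0.23 (without control 1) to 0.41 (without control 2), and it was also below 0 without PUS10KO 2 or PUS10KO 3. That of the cargo transport kinesins ranged from -0.12 to -0.02.

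**Figure D1:**
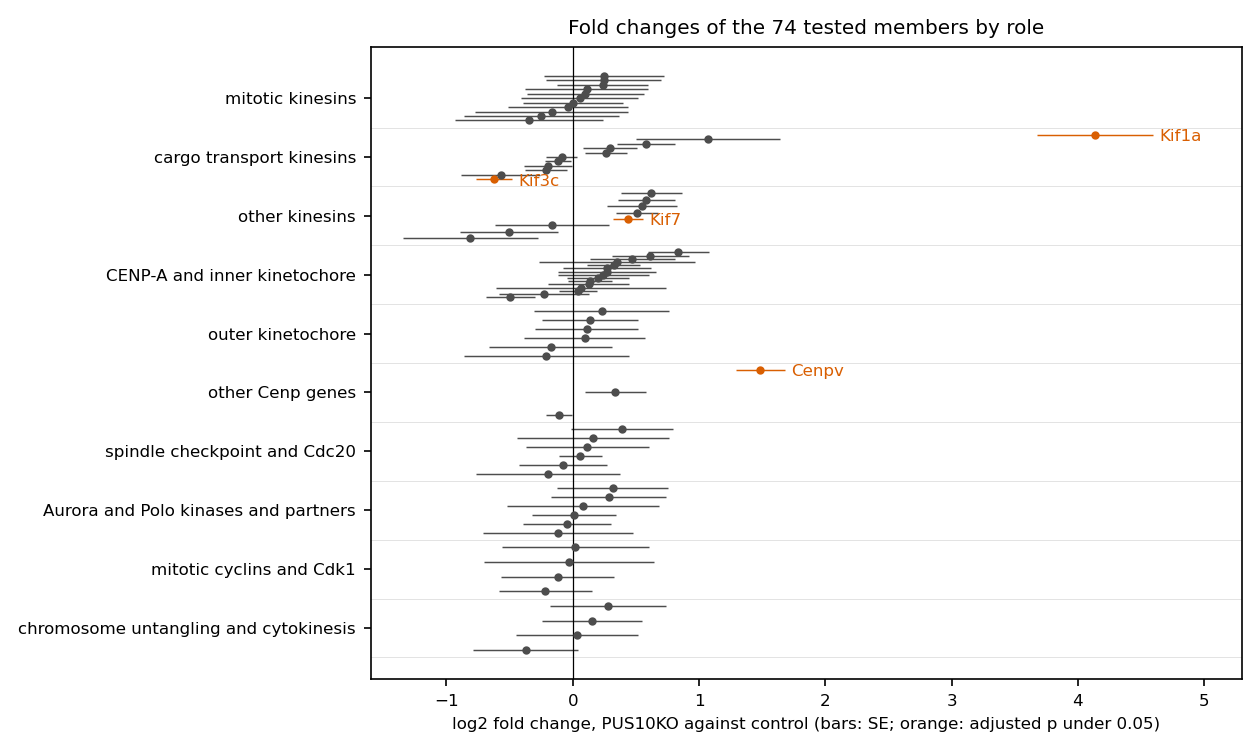
Log2 fold change of PUS10KO against control for each of the 74 tested members, in rows by role, with bars for the standard error over 8 libraries; orange marks an adjusted p under 0.05. Kif1a stands at 4.13 and Cenpv at 1.49, and all 52 mitotic members lie between -0.50 and 0.84 in grey.

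Kif1a is the motor best known for carrying synaptic vesicle precursors along axons (ENSMUSG00000014602.15, chromosome 1, 93015464 to 93101951, minus strand, GRCm38). It was at 2.43, 0.438, 2.06 and 1.48 CPM in the control libraries, in the order of their numbers, and at 25.5, 18.1, 31.7 and 38.3 CPM in the PUS10KO libraries. Every PUS10KO library lay far above every control library, and the control libraries were near the lower end of what was measured, with 8 to 50 counts each. In the fit this was a 17.6-fold difference (log2 fold change 4.13, SE 0.46, adjusted p = 0.000764), and the log2 value ran from 3.83 to 4.41 when 1 library was left out, passing in 8 of 8 such fits. Per kilobase of exon, the scale on which genes can be compared, Kif1a ranked 29 of the 30 tested kinesins in control, at 0.17 CPM per kb, and reached 3.05 CPM per kb in PUS10KO. Of 8 markers of neural cells 3 were in the table, with log2 fold changes from -1.98 to 0.04, and 1 of them fell. Their summed level was lower in PUS10KO (66.6 to 94.5 CPM) than in control (165 to 240 CPM). In each of numbers 1, 2 and 3, however, 1 of the 3 markers was higher in PUS10KO. Whether neural cells have a part in the Kif1a level was not tested.

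Cenpv encodes a protein named for its reported place at centromeres (ENSMUSG00000018509.8, chromosome 11, 62524946 to 62539261, minus strand). It had 4.43, 6.62, 4.07 and 5.75 CPM in control and 14.8, 14.8, 15.7 and 13.2 CPM in PUS10KO. The genotypes did not overlap, and the means were 5.22 ± 1.18 and 14.6 ± 1.03 CPM (SD, n = 4 each). This is a log2 fold change of 1.49 (SE 0.19, adjusted p = 0.0015), and the call was made in 8 of 8 fits with 1 library left out.

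Kif7 is a kinesin of the tip of the primary cilium, where it regulates Hedgehog signalling (ENSMUSG00000050382.14, chromosome 7, 79698098 to 79715720, minus strand). Its levels were 16.2, 16.8, 17.6 and 17.9 CPM in control and 25.6, 22.6, 21.3 and 23.4 CPM in PUS10KO. The lowest PUS10KO library was thus above the highest control library, by a narrow margin. With a log2 fold change of 0.44 (SE 0.12) the adjusted p was 0.0416, a call lost in each of the 8 fits that left out 1 library (adjusted p 0.0612 to 0.103) and without both libraries numbered 1 (0.37, adjusted p = 0.141). In GENCODE 928 bases of its exons overlap 9330171B17Rik and Ticrr on the other strand, and, as the sources used here do not give the strand setting of the counting, its counts cannot be told from theirs.

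Kif3c, a kinesin-2 subunit that can replace Kif3b beside Kif3a, was the only member that fell (ENSMUSG00000020668.10, chromosome 12, 3365132 to 3406494, plus strand). It had 29.6, 29.1, 38.1 and 33.3 CPM in control and 18.5, 20.6, 24.7 and 20.5 CPM in PUS10KO. All 4 PUS10KO values were below all 4 control values (log2 fold change -0.62, SE 0.14, adjusted p = 0.0216). Its chromosome had a median log2 fold change of -0.60 over 402 tested genes, which leaves -0.02 for Kif3c relative to that median. The call was lost without any 1 library except control 1, control 2 or PUS10KO 3 (highest adjusted p 0.0689) and without both libraries numbered 1 (-0.60, adjusted p = 0.0648), and 3205 exonic bases overlap 1110002L01Rik and Gm48512 on the other strand. Its partners did not pass in this fit. Kif3a, the shared subunit, had 17.2, 14.9, 22.3 and 25.3 CPM in control and 18.1, 23.0, 29.2 and 27.4 CPM in PUS10KO (log2 fold change 0.29, SE 0.21, adjusted p = 0.436), and it passed with the block once both libraries numbered 1 were left out (0.38, adjusted p = 0.0415). These ranges overlap, although each PUS10KO library was above the control library of the same number. For Kif3b the log2 fold change was -0.12 (adjusted p = 0.543).

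**Figure D2:**
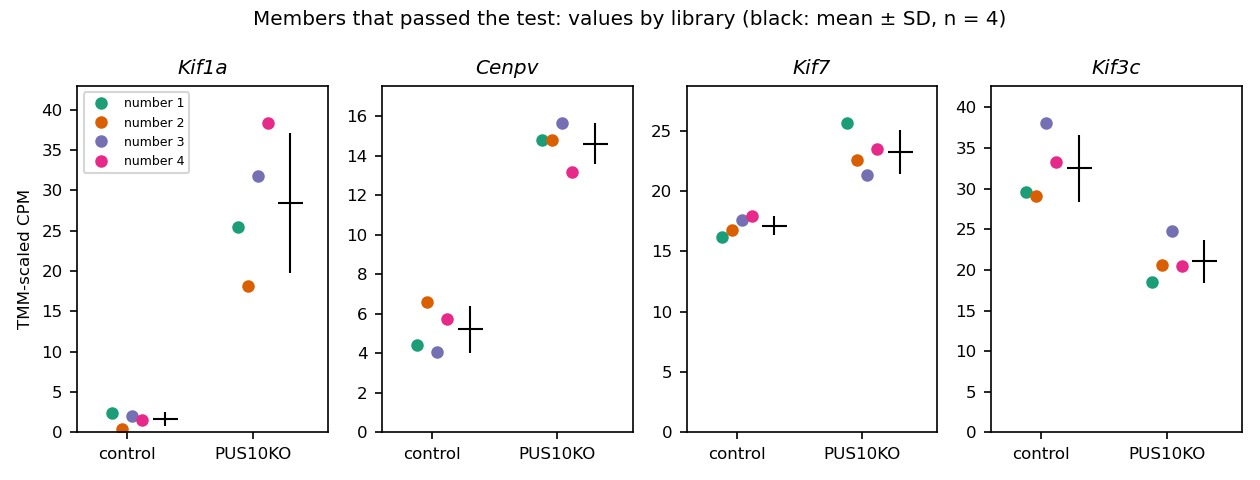
TMM-scaled CPM of the 4 members that passed the test, by genotype, with a point for each library coloured by its number and black bars for mean ± SD (n = 4). Kif1a, Cenpv and Kif7 are higher in all 4 PUS10KO libraries than in any control library, and Kif3c is lower.

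The mitotic members varied much more from library to library than between genotypes. The spindle motor Kif11, which pushes the poles apart (chromosome 19, 37376403 to 37421859, plus strand), had 50.9, 243, 178 and 175 CPM in control and 80.4, 246, 195.5 and 149 CPM in PUS10KO. Both libraries numbered 1 were lowest and both numbered 2 were highest, and the genotypes overlapped throughout. Its log2 fold change was 0.05 (SE 0.46, adjusted p = 0.96). Cenpa, the histone variant that marks centromeres, had 8.47, 90.2, 67.2 and 55.0 CPM in control and 15.2, 94.7, 61.4 and 59.3 CPM in PUS10KO (log2 fold change 0.06, SE 0.67, adjusted p = 0.968). Its level was 10.6 times as high in control 2 as in control 1 and 6.23 times as high in PUS10KO 2 as in PUS10KO 1, the largest ratios among the members.

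The microtubule gripping and checkpoint genes showed the same order of libraries. Ndc80, of the outer kinetochore, had 21.7, 115, 79.5 and 86.5 CPM in control and 28.7, 87.7, 82.2 and 69.2 CPM in PUS10KO (log2 fold change -0.17, adjusted p = 0.864). Bub1b, whose product BubR1 inhibits Cdc20, had 28.5, 220, 194 and 154 CPM in control and 52.7, 227, 209 and 178 CPM in PUS10KO (0.16, adjusted p = 0.903). Aurkb, the kinase that corrects wrong attachments, had 22.2, 109, 89.1 and 67.3 CPM in control and 52.3, 124, 92.7 and 89.3 CPM in PUS10KO (0.32, adjusted p = 0.702). In all 3 genes the libraries numbered 1 stood below the other 6, and number 2 was highest in both genotypes.

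The cyclins, their kinase and the chromosome genes were alike in this. Ccnb1, the cyclin B1 gene, had 33.5, 258, 185 and 167 CPM in control and 59.8, 261, 175 and 156 CPM in PUS10KO (log2 fold change 0.02, adjusted p = 0.989). Its kinase partner Cdk1 had 117, 457, 274 and 244 CPM in control and 169, 326, 230 and 215 CPM in PUS10KO (-0.22, adjusted p = 0.763). Top2a, the topoisomerase that untangles sister chromosomes, had 248, 1006, 718 and 765 CPM in control and 458, 1020, 842 and 724 CPM in PUS10KO (0.15, adjusted p = 0.852). In each of the 3 both libraries numbered 1 were lowest, and the range within a genotype was wider than the difference between the genotype means.

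The other members are given by their ranges. The remaining mitotic kinesins had log2 fold changes from -0.35 (Kif23, which builds the central spindle) to 0.25 (Kif4, a motor on chromosome arms, and Kif18b). The 6 outer kinetochore genes lay between -0.21 (Cenpf) and 0.23 (Cenpe), and the 6 genes of the checkpoint group between -0.20 (Cdc20) and 0.39 (Ttk, the kinase that starts checkpoint signalling). The Aurora and Polo group ran from -0.12 (Aurka) to 0.32, the cyclins and Cdk1 from -0.22 to 0.02, and the untangling and cytokinesis genes from -0.37 (Anln, the furrow scaffold anillin) to 0.28 (Ect2, a cytokinesis gene). The standard errors of the mitotic kinesins were 0.36 to 0.61 without library number in the model and 0.10 to 0.19 with it.

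Among the 15 genes of CENP-A chromatin and the inner kinetochore the median log2 fold change was 0.24, and 7 were higher in PUS10KO in all 4 numbers (46.7%, beside 28.4% of all genes tested). Over all 74 members 28 were higher in all 4 numbers and 5 were lower (6.76%, beside 26.9% of all genes). Cenpk, a subunit of the layer on which the outer kinetochore is built, had 12.3, 25.2, 20.6 and 18.5 CPM in control and 24.6, 43.8, 36.1 and 32.4 CPM in PUS10KO. The ranges overlap only because PUS10KO 1 lay just below control 2. Its log2 fold change was 0.84 (SE 0.25, adjusted p = 0.0559), and it passed without control 2, without PUS10KO 1 and without both libraries numbered 1 (0.81, adjusted p = 0.0337). Cenph, its partner in the same complex, had 0.62 (adjusted p = 0.242). Cenpo had 12.02, 21.7, 20.9 and 19.3 CPM in control and 11.95, 13.9, 13.6 and 12.9 CPM in PUS10KO. PUS10KO was the lower library in numbers 2 to 4, and the libraries numbered 1 were alike. Its log2 fold change of -0.50 (adjusted p = 0.145) passed without control 1 and without both libraries numbered 1 (-0.60, adjusted p = 0.037). Cenpo also lies on chromosome 12, and relative to that chromosome's median its fold change was 0.11. Its exons overlap Adcy3 and Ptrhd1 over 1632 bases.

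Cargo transport kinesins did not share the order of libraries seen in most mitotic members. In 0 of the 11 were both libraries numbered 1 below the other 6, beside 86.5% of the mitotic members. The share over all genes tested was 8.58%, so that 0 of 11 is close to what genes in general showed. Kif5b, the conventional kinesin-1 heavy chain and the transport kinesin with the highest level per kilobase, had 784, 550, 336 and 397 CPM in control and 445, 436, 277 and 233 CPM in PUS10KO. Its PUS10KO values were lower in each number but overlapped the control range, and the log2 fold change of -0.57 (SE 0.31) had an adjusted p of 0.286. It ran from -0.72 (without control 3) to -0.29 (without control 1). The others apart from Kif1a and Kif3c ran from -0.21 (Kif1b) to 0.58 (Kif16b, a motor of early endosomes) and 1.07 (Kif5c, at most 3.10 CPM in any library). Per kilobase of exon the most abundant kinesins in control were Kif20a (72.4 ± 43.1 CPM per kb, SD, n = 4), Kif5b (64.7 ± 25.0) and Kif1c (42.0 ± 9.74). The first 2 did not differ beyond their spread. Kif20a carries the chromosomal passenger proteins to the midzone, and 1271 of its exonic bases overlap Cdc23 on the other strand.

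Summed over genes, the contrast between both kinds of kinesin was plain. The 11 mitotic kinesins together had 309, 1787, 1228 and 1088 CPM in control and 499.9, 1624, 1191 and 973 CPM in PUS10KO. The 11 cargo transport kinesins had 1557, 1238, 998 and 972 CPM in control and 1107, 1091, 987 and 864 CPM in PUS10KO. The mitotic sum was therefore lowest in number 1 and highest in number 2 in both genotypes, an order that the transport sum did not share. The transport sum had an order of its own, highest in number 1 and lowest in number 4 in both genotypes. It rests mostly on Kif5b (784 CPM in control 1) and Kif1c (371 CPM), so its order need not hold for the other transport kinesins. The median ratio of number 2 to number 1 was 5.16 in control and 3.06 in PUS10KO for the mitotic kinesins, and 0.87 and 0.998 for the transport kinesins. In these bulk samples fewer dividing cells and less RNA per cell cannot be told apart.

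**Figure D3:**
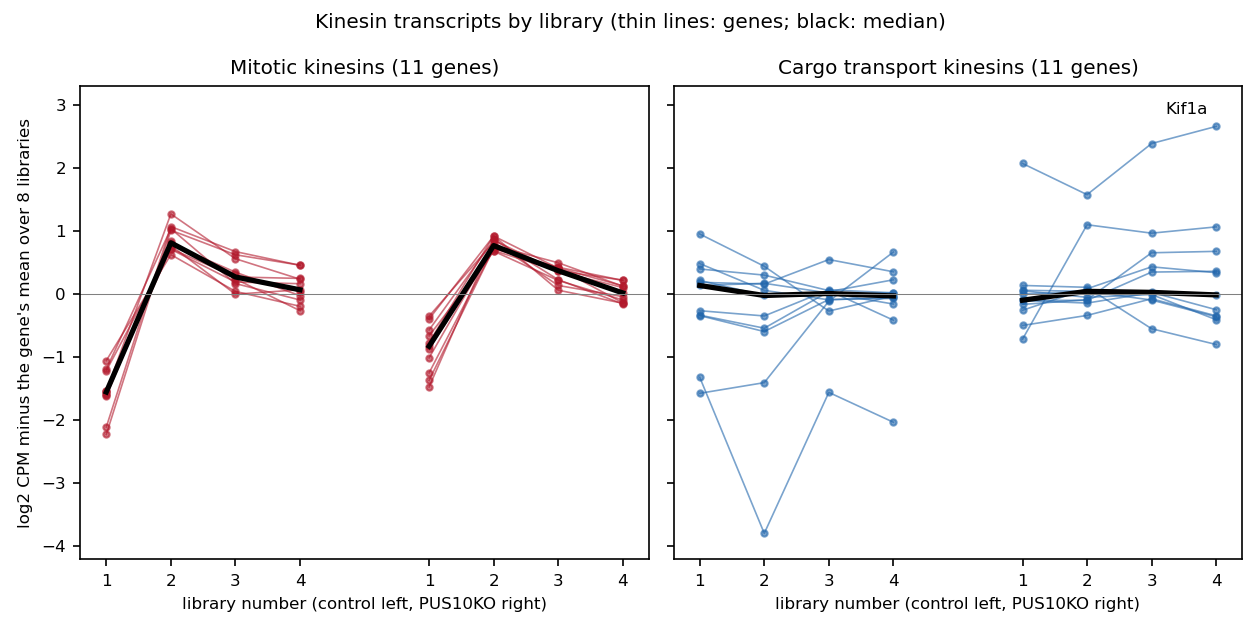
Log2 CPM of each kinesin minus that gene's mean over the 8 libraries, by library number within each genotype, for 11 mitotic (red) and 11 cargo transport kinesins (blue); thin lines join the values of a gene and black lines the medians. All mitotic kinesins are lowest in the libraries numbered 1 and highest in those numbered 2, while the transport median stays near 0 and Kif1a parts by genotype.

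The spread between numbers was then tested, a step chosen after these values had been seen, by an edgeR F test of the 3 number terms with genotype in the model. It called 11 of 11 mitotic kinesins, 5 of 11 cargo transport kinesins and 4 of 8 other kinesins, and 42.4% of all genes tested. Over the 52 mitotic members 47 were called (90.4%). The 5 that did not pass were Cenpo, Cenps, Cenpt, Cenpx and Bub3, and all except Bub3 are inner kinetochore genes. Without both libraries numbered 1 the same test called 41 of the 52 mitotic members and 6 of the 11 transport kinesins, against 38.2% of all genes. In 45 of the 52 mitotic members (86.5%) both libraries numbered 1 lay below all other 6, as they did in 8.58% of all genes tested. Number 2 was the highest library of both genotypes in 44 of the 52 (84.6%), beside 14.4% of all genes.

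The variance of log2 CPM was split into shares between numbers, between genotypes and the rest. The share between numbers rests on 3 terms and that between genotypes only on the genotype term. The former is thus larger even without any effect, and each share is to be read against that of all genes. For the mitotic kinesins the median share was 93.8% between numbers and 1.46% between genotypes. For the cargo transport kinesins these shares were 60.3% and 28.7%, and for all genes tested 58.0% and 22.1%. Kif1a (7.11% and 90.6%), Cenpv (2.41% and 92.9%) and Kif7 (2.54% and 88.2%) had the opposite split to the mitotic genes.

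**Figure D4:**
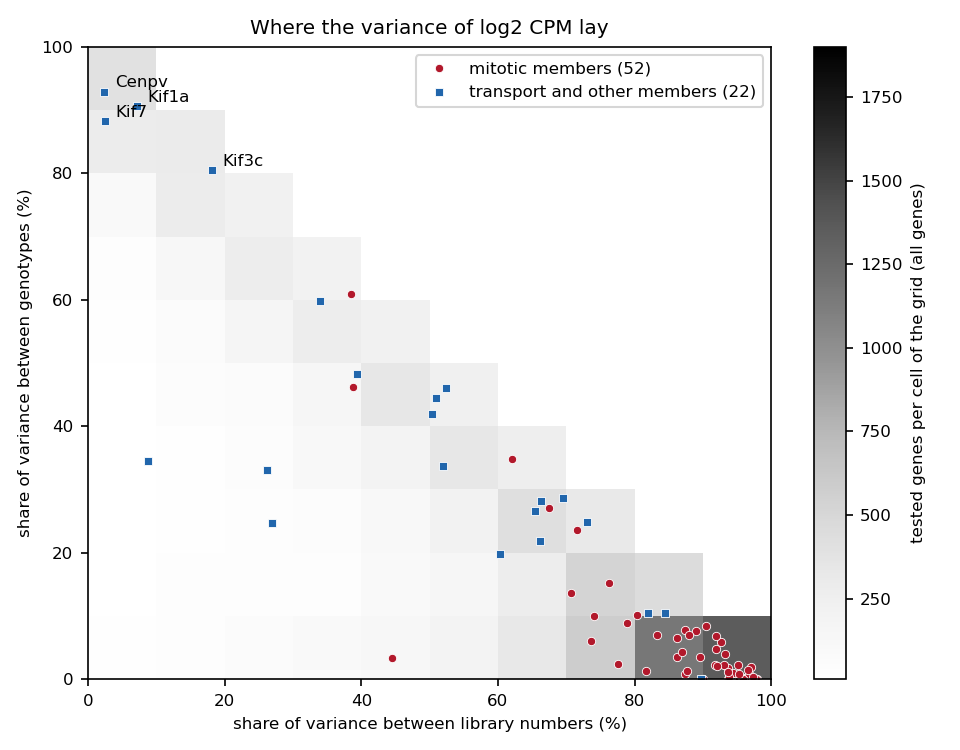
Share of the variance of log2 CPM between library numbers (x axis, %) against the share between genotypes (y axis, %) for 52 mitotic members (red circles) and the 22 other members (blue squares), over a grey grid that counts all genes tested. Most mitotic members crowd at the lower right, with a median of 91.1% between numbers, and Kif1a, Cenpv, Kif7 and Kif3c lie at the upper left.

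Within a number the genotype difference of the mitotic members was not of the same size throughout. The summed level of the 52 mitotic members was 1941, 8507, 5699 and 5189 CPM in control and 2948, 7806, 5828 and 4974 CPM in PUS10KO. In number 1 the PUS10KO library was higher in 50 of the 52 members, with a median difference of 0.74 on the log2 scale. In numbers 2, 3 and 4 it was higher in 22, 33 and 28 of the 52, with median differences of -0.05, 0.06 and 0.06. Over all genes tested 50.2% to 52% were higher in PUS10KO in each number. Whether the genotype difference depends on the number was not tested.

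The promoters of the mitotic members and the transport kinesins are shown because the mitotic genes share an order of libraries that the transport genes do not. Late cell cycle genes are known to share the cell cycle genes homology region, or CHR (TTTGAA or TTCGAA), which binds the MuvB core of the DREAM and MMB-FOXM1 complexes, and CCAAT boxes, which bind NF-Y. Both motifs were searched on both strands in RefSeq windows of 250 bases before to 50 after the gene start (GRCm38.p6), where matches may share bases. Windows were matched for 65 of the 74 tested members. The 120 bases before the start are printed 5′ to 3′ on the gene's strand for 5 mitotic members and the 3 kinesin-2 subunits, with every match in capitals (TTCAAA and ATTGG are the motifs on the other strand). The windows are Kif11 chr19:37376262-37376381 (plus strand), Cenpw chr10:30200541-30200660 (minus strand), Cdc20 chr4:118437344-118437463 (minus strand), Cdk1 chr10:69352913-69353032 (minus strand), Top2a chr11:99024190-99024309 (minus strand), Kif3a chr11:53567249-53567368 (plus strand), Kif3b chr2:153291296-153291415 (plus strand) and Kif3c chr12:3365012-3365131 (plus strand).
Kif11: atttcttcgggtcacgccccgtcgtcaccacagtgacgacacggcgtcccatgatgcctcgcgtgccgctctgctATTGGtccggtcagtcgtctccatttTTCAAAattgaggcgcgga
Cenpw: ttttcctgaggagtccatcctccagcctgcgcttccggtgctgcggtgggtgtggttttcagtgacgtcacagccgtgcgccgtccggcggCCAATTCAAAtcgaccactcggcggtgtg
Cdc20: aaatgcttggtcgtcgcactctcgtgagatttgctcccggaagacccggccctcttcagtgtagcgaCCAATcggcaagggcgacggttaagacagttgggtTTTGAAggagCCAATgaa
Cdk1: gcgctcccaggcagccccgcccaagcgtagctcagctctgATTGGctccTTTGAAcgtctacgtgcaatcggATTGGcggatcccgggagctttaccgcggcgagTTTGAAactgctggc
Top2a: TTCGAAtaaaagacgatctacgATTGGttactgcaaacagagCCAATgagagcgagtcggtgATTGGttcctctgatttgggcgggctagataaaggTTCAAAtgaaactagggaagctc
Kif3a: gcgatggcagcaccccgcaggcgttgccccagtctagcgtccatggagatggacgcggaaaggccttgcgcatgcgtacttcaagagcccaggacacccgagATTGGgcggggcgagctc
Kif3b: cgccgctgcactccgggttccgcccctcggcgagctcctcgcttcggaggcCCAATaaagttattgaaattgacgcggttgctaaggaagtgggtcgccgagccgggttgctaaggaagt
Kif3c: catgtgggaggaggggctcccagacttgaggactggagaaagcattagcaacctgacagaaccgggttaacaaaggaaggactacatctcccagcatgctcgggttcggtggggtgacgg
In the 5 printed mitotic genes a CHR match begins 15 to 25 bases before the start, at 19 in Kif11, 25 in Cenpw, 18 in Cdc20, 15 in Cdk1 and 23 in Top2a. Cdk1 and Top2a hold a further match upstream. These 5 are examples picked by hand. Of the 46 mitotic members with a window 16, Ccnb1 among them, had no CHR match in the full window. No CHR match lies in the printed bases of the kinesin-2 subunits. Distances are to the RefSeq start, which differs from that of GENCODE in some genes. The last 26 printed bases of Cdk1, 20 of Cenpw, 9 of Cdc20 and 3 of Kif3b lie inside the GENCODE gene. The Cdk1 match at 15 is among these bases.

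Over the full windows a CHR match was present in 30 of 46 mitotic members (65.2%), 9 of 10 mitotic kinesins and 0 of 9 cargo transport kinesins, beside 13.8% of the 9512 tested genes with a window. CCAAT was present in 33 of 46 mitotic members (71.7%), 6 of 10 mitotic kinesins and 3 of 9 transport kinesins, beside 39.5% of all. Both motifs stood in 54.3% of the mitotic members and 6.11% of all tested genes. Among mitotic members the 30 with a CHR match had a median ratio of number 2 to number 1 of 5.15 in control and 3.04 in PUS10KO, and the 16 without had 3.13 and 1.97, with ranges that overlap (1.59 to 10.6 and 1.31 to 7.69 in control). The group without a match is largely made of Cenp genes. A match describes these letters only, and binding was not measured.

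With the library number as a block in the model, which takes the spread between numbers out of the error, more members passed. Then 17 of the 74 rose and 5 fell (29.7%). The same fit called 39% of all genes tested, 19.1% that rose and 19.9% that fell. None of the 11 mitotic kinesins passed with the block, and 3 had an unadjusted p under 0.05. Without the block DESeq2 and limma voom also called 0 of the 11. Of the mitotic members 7 rose and 2 fell (17.3%, beside 39% of all genes). The 7 were 4 inner kinetochore genes, Cenpk (log2 fold change 0.85, adjusted p = 0.000222), Cenph (0.66, 0.0019), Cenpi (0.53, 0.00692) and Cenpq (0.34, 0.0255), with the checkpoint kinase gene Ttk (0.50, 0.0335), the survivin gene Birc5 (0.40, 0.0436) and Ect2 (0.34, 0.0238). The 2 that fell were Cenpo (-0.47, 0.0248) and Anln (-0.36, 0.0105).

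Without both libraries numbered 1, the block fit called 12 mitotic members, 5 that rose and 7 that fell, against 37.2% of all genes tested. Cenpk (0.81), Cenph (0.56), Cenpi (0.42), Ttk (0.30) and Ect2 (0.27) were again among those that rose. Birc5 and Cenpq were no longer called. Anln and Cenpo were joined among those that fell by Kif23 (-0.37, adjusted p = 0.00744), Kif20a (-0.30, 0.0186), Cenpn (-0.32, 0.0262), Cdk1 (-0.30, 0.0272) and Cdc20 (-0.27, 0.0428). For these 5 genes the number 1 libraries differed the other way, as for nearly all mitotic members.

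Among the remaining kinesins the block fit called 9 besides Kif1a, Kif3c and Kif7. With these included it called 54.5% of the cargo transport kinesins and 75% of the other kinesins, beside 39% of all genes tested. Of the transport kinesins Kif5b fell (-0.55, adjusted p = 0.00575), and Kif16b (0.54, 0.00578), Kif13b (0.26, 0.0381) and Kif5c (1.13, 0.0288) rose. Of the other kinesins Kif9 fell (-0.83, 0.0351), at only 6 to 44 counts per library. Kif2a, a microtubule depolymerase (0.57, 0.00126), Kif21a, which restrains microtubule growth (0.53, 0.0045), Kif26b (0.65, 0.00716) and Kif24 (0.58, 0.0213) rose. Without the block these 4 that rose had adjusted p values from 0.0876 to 0.248 and were higher in PUS10KO in each of the 4 numbers. Kif2a shares 1229 exonic bases with Dimt1 on the other strand.

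Related gene lists outside the rule were counted by the same tests. Of 67 other mitotic genes 1 rose and none fell (1.49%, beside 13% of all genes). By the same F test 63 differed between numbers (94%, beside 42.4% of all genes). The 1 was Pttg1, which encodes securin, the inhibitor of separase. It had 13.5, 14.2, 17.4 and 15.1 CPM in control and 15.9, 72.0, 66.2 and 51.8 CPM in PUS10KO. PUS10KO 1 lay within the control range, and the other 3 PUS10KO libraries lay far above it. At a log2 fold change of 1.78 (SE 0.40) the adjusted p was 0.0194, a call lost without control 1, PUS10KO 2 or PUS10KO 3 (highest adjusted p 0.0545) and with limma voom (0.0619). Without both libraries numbered 1 it was 2.03 (adjusted p = 0.00177). With the block 14 of the 67 rose and 2 fell (23.9%, beside 39% of all genes).

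No gene passed edgeR's test among 21 genes of cell cycle transcription factors (E2F factors included), NF-Y and DREAM subunits, or among 24 replication genes. Over all genes tested 13% passed. In the first list 1 had an unadjusted p under 0.05, and in the second none did, beside 3115 of all 11909 genes. DESeq2 called 1 and 0 in these lists, beside 1083 that rose and 1232 that fell over all genes. Limma voom called 0 and 0, beside 699 and 814. With the block 5 rose and 2 fell in the first list (33.3%) and 9 rose and 1 fell in the second (41.7%), beside 39% of all genes. When both libraries numbered 1 were left out, the block fit gave 5 and 2 in the first list. In the second it gave 4 and 1, beside 37.2% of all genes. In number 1 the PUS10KO library was higher in 23 of the 24 replication genes, with a median difference of 0.60 on the log2 scale. The log2 fold change of the ribonucleotide reductase gene Rrm1 was 0.43 (adjusted p = 0.278; block fit, 0.00625), and it passed without control 2 (0.69, adjusted p = 0.0377). The helicase subunit gene Mcm6 had 0.35 (0.195; block fit, 0.0181). Tfdp1, the partner of the E2F factors, had 0.31 (0.322; block fit, 0.0182), and the histone-binding DREAM subunit gene Rbbp4 had -0.04 (adjusted p = 0.90). The replication list differed between numbers in 17 of 24 genes (70.8%, beside 42.4% of all genes).

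The rest of the transport machinery is read against the 13% of all genes that passed the test and the 7.11% that fell. Of 13 light chains and adaptors 1 fell (7.69%), the kinesin light chain gene Klc2 (log2 fold change -0.62, adjusted p = 0.0374, lost in 7 of 8 fits with 1 library left out, all except that without PUS10KO 1, up to 0.109). Of 22 dynein and dynactin genes, which move cargo the opposite way, 4 fell and none rose (18.2%, median log2 fold change -0.23). They included the dynein heavy chain gene Dync1h1, at 762, 648, 715 and 557 CPM in control and 410, 338, 429 and 435 CPM in PUS10KO. Its genotypes did not overlap, and the log2 fold change was -0.73 (adjusted p = 0.0106). The dynactin genes Actr10 (-0.63, adjusted p = 0.00464) and Dctn2 (-0.56, 0.0162, lost without control 3, PUS10KO 2 or PUS10KO 3, up to 0.0562) also fell. Dync1h1 and Actr10 lie on chromosome 12, and relative to its median their fold changes were -0.13 and -0.03. Of 12 tubulins 2 fell and none rose (16.7%). Tuba4a, an alpha tubulin, had 76.1, 54.9, 47.3 and 42.2 CPM in control and 22.8, 15.7, 12.7 and 12.1 CPM in PUS10KO, without overlap (-1.80, adjusted p = 0.00242). Its exons share 1379 bases with Stk16 on the other strand. Tubg2, a gamma tubulin, went from 1.66 ± 0.45 to 0.34 ± 0.11 CPM (SD, n = 4 each; -2.27, adjusted p = 0.0037). With the block 1 light chain or adaptor gene rose and 4 fell (38.5%), 2 dynein or dynactin genes rose and 9 fell (50%), and 0 tubulins rose and 6 fell (50%), beside 39% of all genes, of which 19.9% fell.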

How the data were processed

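The counts deposited by the authors are whole numbers of reads for each gene in 8 libraries, made from total RNA with a stranded kit and paired-end sequencing, per the labels' protocols. STAR 2.7.8a, mm10 and DESeq2 are named in the submitters' processing notes; the counter, its strand setting and the annotation stand in none of the sources used here. The authors' normalized table was not used, because differences between numbers had been removed from it. Counts were filtered (filterByExpr), scaled by TMM and tested in R 4.3.3 with edgeR 4.0.16 (glmQLFit robust, glmQLFTest, Benjamini-Hochberg over 11909 genes); fold changes are PUS10KO over control on the log2 scale. All 8 libraries entered with genotype as the only term. Same-numbered libraries deviated together from their genotype means (r = 0.681, 0.722, 0.633 and 0.687, computed over genes, which are no replicates). Across different numbers r reached at most 0.303, 0.0416, 0.582 and 0.503, in the same order. The pairing by number was therefore less distinct for numbers 3 and 4 than for numbers 1 and 2. Numbers were taken to pair the libraries only in the block fits, the F test between numbers, the variance shares and the differences within a number. The main fit does not pair them, so the spread between numbers stays in its error. Its calls and p-values are those given without mention of the block. Libraries of a genotype differed beyond sampling noise. The test was also run on simulated counts without differences between numbers, so that run does not show how it behaves for the mitotic members. Alternatives were RLE size factors, no filter, DESeq2 1.42.0, limma 3.58.1 voom, the replicate block, each library left out and, chosen after seeing the data, both libraries numbered 1 left out. Positions and exon lengths came from GENCODE M21 (GRCm38) and promoter windows from RefSeq. Values in every library are given for called members and 10 anchor genes chosen by role, and up to 3 called genes per related list (2 by level where none passed) are named; any other gene with values was named after they were seen. Members, lists and anchors were chosen with earlier results of these data known.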

Additional observations from a re-analysis of the deposited data

How the results depend on the processing

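The counts of members that passed depended most on whether library number was in the model. With the replicate block 17 rose and 5 fell, beside 39% of all genes. Without both libraries numbered 1 and with the block 16 rose and 9 fell, beside 37.2%. DESeq2 gave 5 that rose and 1 that fell. Over all genes it called 1083 and 1232, where the main fit called 703 and 847. With 1 library left out, 2 to 3 members rose and 0 to 2 fell, while over all genes 489 to 616 rose and 503 to 713 fell. RLE size factors, no filter and limma voom each gave 3 and 1, and the text gives each call of a named gene that the block changed, with or without the libraries numbered 1. Klc2 and Dctn2 also lost the call in edgeR's test without both libraries numbered 1 (adjusted p = 0.0506 and 0.0723). Of 375 refitted values of 25 named genes, 311 kept direction and side of the threshold, 31 lost the call, 11 gained it and 22 changed sign. The sign changes were in genes that did not pass. In those leave-one-out fits log2 fold changes lay between -0.23 and 0.32 for Kif11 and went from -0.28 to 0.40 for Cenpa, -0.47 to 0.10 for Ndc80, -0.18 to 0.46 for Bub1b, -0.31 to 0.34 for Ccnb1, -0.46 to 0.15 for Cdk1, -0.12 to 0.40 for Top2a, -0.108 to 0.0185 for Rbbp4 and, with no change of sign, 0.0293 (without control 1) to 0.59 (without control 2) for Aurkb. Without both libraries numbered 1 it was -0.000341 for Kif11 and -0.0305 for Ccnb1, and with the block as well -0.0161 and -0.0449. The cause was not tested. Members called between numbers ran from 49 to 62 with 1 library left out (57 with all). The transport gene Kif5a, at 4 to 11 counts, is below what these depths can test.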
